A study of Homo sapiens with 4 samples.

Results

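Antisense lncRNA genes are described here in nascent RNA of K562 cells from which the elongation factor IWS1 was removed for 1 h. The members were all genes of the deposited table whose name ends in -AS with or without a number, and 224 of its 10147 genes met this rule. The name was the only criterion applied to the table. The table itself holds only genes over a minimum of TT-seq reads per kb in this study, and the set was chosen with earlier results of these data known. K562 is a human chronic myelogenous leukemia line, and in every sample the endogenous IWS1 gene carried an N-terminal dTAG, a degron that lets a small molecule send the tagged protein to the proteasome. Control cells received DMSO and dIWS1 cells received 500 nM dTAG7, both for 1 h, so the controls carried the same edited gene. RNA was then labelled for 5 min with 500 µM 4-thiouridine (4sU), and the labelled RNA was sequenced (TT-seq, transient transcriptome sequencing). Each group had 2 libraries, described as biological replicates, but the whole reads recovered from the deposited table formed 1 control column and 2 dIWS1 columns (dIWS1 column 1 and column 2), and every ratio below shares that control.

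An antisense lncRNA is transcribed by RNA polymerase II from the strand opposite to another gene, whose name it takes. Some start beside the promoter of the sense gene and run away from it, because many mammalian promoters fire in both directions, while others start inside the sense gene or behind its 3′ end and run back across it. A few of these RNAs act on their sense gene in cis or bind microRNAs or proteins, and most have no assigned role. IWS1 (the human homologue of yeast Spn1) travels with elongating RNA polymerase II together with the histone chaperone SPT6, and the study asked how its acute loss changes RNA synthesis.

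All 224 names were found in the RefSeq annotation of GRCh38.p14, 170 as a current symbol and 54 as an older synonym, and the spans below are those of that annotation. RefSeq types 215 of them as lncRNA and 2 as antisense RNA. TP73-AS1, PSMD5-AS1 and CRYM-AS1 are now listed as transcribed pseudogenes, and SPTY2D1-AS1, UBXN10-AS1, NCBP2-AS2 and MMP24-AS1 as protein coding. RefSeq now names 40 members as divergent transcripts (-DT). The shortest span was 592 bp and the longest 334939 bp. The median span of the members was 9443 bp, against 27159 bp over all genes.

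The position of a member relative to its namesake fell into a few arrangements. In 75 cases the 2 genes were divergent, with starts facing away from each other, and the median distance between the starts was 149 bp. In 60 cases the 5′ parts of the spans overlapped (5′ overlap), in 42 cases the 3′ parts did (3′ overlap), and in 36 cases one span lay inside the other (nested). A further 6 members were convergent without overlap and 5 could not be placed. The sense gene was itself listed in the table for 160 members and not for 64, so 160 pairs could be compared.

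Promoter windows of 300 bases, 250 before and 50 after the annotated start, were listed by RefSeq (GRCh38.p14) for 172 of the 224 members. The following 5 are shown because their genes are contrasted below. No window was used for DGUOK-AS1 and PCF11-AS1, which also stand out. They come from the members with the deepest falls behind a 3′ end (USP3-AS1, chr15:63600778-63601077, minus strand; PSMD6-AS2, chr3:64003772-64004071, plus strand), from a divergent member that fell further than its sense gene (ZBED5-AS1, chr11:10857967-10858266, plus strand) and one that did not (CAPN10-AS1, chr2:240586267-240586566, minus strand), and from a member among the highest ratios (ASH1L-AS1, chr1:155561792-155562091, plus strand). Each reads 5′ to 3′ on the strand of the antisense gene, and capitals mark every GC box (GGGCGG or its complement CCCGCC) and CCAAT box (CCAAT or ATTGG).
USP3-AS1: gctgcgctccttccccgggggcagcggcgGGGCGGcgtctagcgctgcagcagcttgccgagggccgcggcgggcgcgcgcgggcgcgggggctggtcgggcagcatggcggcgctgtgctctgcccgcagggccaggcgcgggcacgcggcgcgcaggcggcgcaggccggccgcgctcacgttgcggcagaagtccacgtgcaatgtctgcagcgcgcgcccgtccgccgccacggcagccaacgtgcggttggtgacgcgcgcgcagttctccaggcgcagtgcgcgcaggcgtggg
PSMD6-AS2: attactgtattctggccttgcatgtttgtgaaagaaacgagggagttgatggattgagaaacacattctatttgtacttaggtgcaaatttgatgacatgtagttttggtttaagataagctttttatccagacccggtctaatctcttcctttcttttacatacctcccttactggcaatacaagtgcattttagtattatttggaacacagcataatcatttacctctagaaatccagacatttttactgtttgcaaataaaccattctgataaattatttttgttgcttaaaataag
ZBED5-AS1: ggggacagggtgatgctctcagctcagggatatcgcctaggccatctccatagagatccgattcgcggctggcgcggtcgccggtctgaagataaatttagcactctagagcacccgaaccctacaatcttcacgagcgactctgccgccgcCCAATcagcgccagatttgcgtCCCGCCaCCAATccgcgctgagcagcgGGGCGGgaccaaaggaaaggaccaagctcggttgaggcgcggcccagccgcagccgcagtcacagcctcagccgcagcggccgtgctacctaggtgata
CAPN10-AS1: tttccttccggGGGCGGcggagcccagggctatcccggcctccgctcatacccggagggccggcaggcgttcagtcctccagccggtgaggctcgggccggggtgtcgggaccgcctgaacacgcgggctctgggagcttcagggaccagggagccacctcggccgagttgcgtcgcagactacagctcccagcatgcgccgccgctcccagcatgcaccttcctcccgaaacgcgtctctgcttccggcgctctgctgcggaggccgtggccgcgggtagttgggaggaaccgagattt
ASH1L-AS1: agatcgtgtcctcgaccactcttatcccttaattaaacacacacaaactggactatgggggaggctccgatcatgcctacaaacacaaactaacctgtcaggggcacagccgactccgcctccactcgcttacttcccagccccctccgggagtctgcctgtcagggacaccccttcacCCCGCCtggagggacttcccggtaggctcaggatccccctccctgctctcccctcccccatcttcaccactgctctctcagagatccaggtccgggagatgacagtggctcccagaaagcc

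The USP3-AS1 window held 52 CpG dinucleotides at 79% GC, and the PSMD6-AS2 window held 2 at 33% GC with neither box. Both genes fell steeply, so deep falls came from starts of opposite base composition. The ZBED5-AS1 window held 2 GC boxes and 2 CCAAT boxes in 28 CpG, and that of CAPN10-AS1 held 1 GC box in 32 CpG. Over the 172 windows the GC box, searched on both strands, occurred in 66.3%, against 71.4% of the 8025 windows of genes in the table and 44.95% of all 35116 windows. It occurred in 80.6% of 62 divergent windows and in 54.2% of 48 windows with 5′ overlap. The TATA box (TATAAA, both strands) occurred in 5.23% of member windows and in 5.41% of those of genes in the table. A match describes the letters of the window only.

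Antisense genes were transcribed at a lower level than the genes they face. Members held a median of 17.4 normalised control reads per kb of span (reads divided by the spike-in size factor), their sense genes 52.9 and all genes 40.7. Within pairs the antisense gene had a median of 40.1% of the level per kb of its sense gene, and it exceeded the sense gene in 38 of 160 pairs. This share was 79.0% for 3′ overlap, 40.3% for divergent, 30.3% for 5′ overlap and 28.4% for nested pairs. The study kept genes over a minimum of reads per kb, so antisense genes transcribed below it are not part of these medians, and the level per kb of the members ran from 0.971 to 340.9 in the present annotation. Reads were counted with respect to strand, so overlap with the sense gene does not by itself mix the 2 counts.

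After loss of IWS1 most antisense genes, like most genes of the table, were transcribed less. The log2 ratio of dIWS1 to control was below 0 for 216 of 224 members (96.4%), beside 96.2% of all genes. Its median over the members was −0.58 (quartiles −0.87 and −0.37), which corresponds to 33.2% less RNA synthesis at the median gene of the set. In the fit across all 10136 genes with reads (limma voom, Benjamini-Hochberg adjusted p under 0.05), 152 members fell, none rose and 72 did not pass. At an unadjusted p under 0.05 (limma voom), 166 members were lower and 0 were higher. The share of all genes at this threshold was not taken, so this count is not read as a trait of the members. The voom fit called 64.5% of all genes lower and 0.109% higher, so in it the share of members called lower, 67.9%, was near the background. Limma trend in place of voom called 155 members (69.2%) lower and 1 higher, beside 55.2% of all genes lower, and at adjusted p under 0.01 voom called 57.1% of members and 48.6% of all genes. The control was 1 distinct column, so these calls rest on the spread between the dIWS1 columns, and variation between control cultures was not measured.

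The size of the fall differed more than the number of calls. The median gene of the table had a log2 ratio of −0.42, and 154 members lay below it. All genes had a median of −0.47 in column 1 and −0.37 in column 2 while the members had −0.57 and −0.58, so the members minus the median gene came to −0.10 in column 1 and −0.21 in column 2. A log2 ratio below −1 was found for 37 members (16.5%) and for 3.76% of all genes. When the ratios were recentred on the median gene and tested again with limma voom, 35 members (15.6%) were lower than the median gene, against a background of 4.78% of all genes. In the same fit 3 members were higher, 1.34%, against a background of 3.01%. With libraries scaled to their total reads in genes in place of the spike-ins, 34 members were lower and 6 higher, beside 10.5% and 14.5% of all genes. The distribution of ratios in the histogram shows the longer lower tail of the members.

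**Figure D1:**
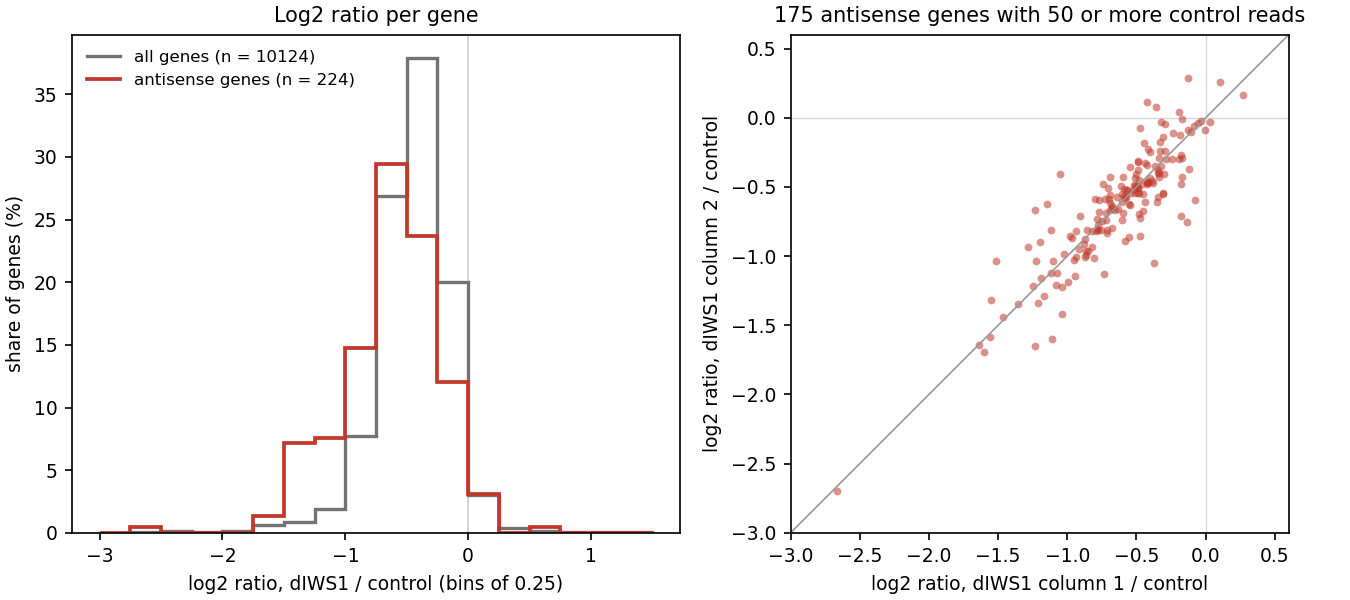
Left, share of genes (%) in bins of 0.25 of the log2 ratio of dIWS1 to control, for the 224 antisense genes (red) and all genes (grey; 12 genes outside the axis are not drawn). Right, log2 ratio in dIWS1 column 1 (x) against column 2 (y) for the 175 antisense genes with at least 50 control reads, with the line of equality; both columns share the control, and the point near −2.7 is USP3-AS1.

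These shares stood beside similar ones in other noncoding genes. LINC genes (long intergenic noncoding RNA, n = 120) had a median of −0.52 with 18 genes lower than the median gene, and the 276 other lncRNA genes had a median of −0.57 with 31 such genes, which is 11.2%. Protein-coding genes (n = 9048) had a median of −0.41 with 4.12%, and the 160 sense genes −0.40 with 4.38%. Among the members, the 40 now named -DT had a median of −0.46. None of them was called lower than the median gene, beside 4.78% of all genes. At an unadjusted p under 0.05 (limma voom, recentred), 4 of the 40 were lower, beside 1187 of all 10136 genes. The other 184 members had a median of −0.63, and 35 of them (19.0%) were called lower than the median gene. No test between these gene classes was made, since genes of a class are not replicates.

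By arrangement with the sense gene, the median fall and the number of members called lower than the median gene in the recentred fit were as follows. Median log2 ratios were −0.54 for divergent, −0.60 for 5′ overlap, −0.62 for nested and −0.66 for 3′ overlap members. Called lower than the median gene were 6 of 75 divergent, 11 of 60 with 5′ overlap, 2 of 36 nested and 14 of 42 with 3′ overlap. These counts stand beside 4.78% of all genes, and the shares of divergent (8.00%) and nested (5.56%) members were the nearest to it. Members with 3′ overlap had a median of 526.5 control reads, those with 5′ overlap 100, nested ones 156 and divergent ones 135, and the part of read number in these counts was not tested. The columns did not keep the order of the medians, since in column 2 the median was −0.62 for 5′ overlap and −0.60 for 3′ overlap.

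**Figure D2:**
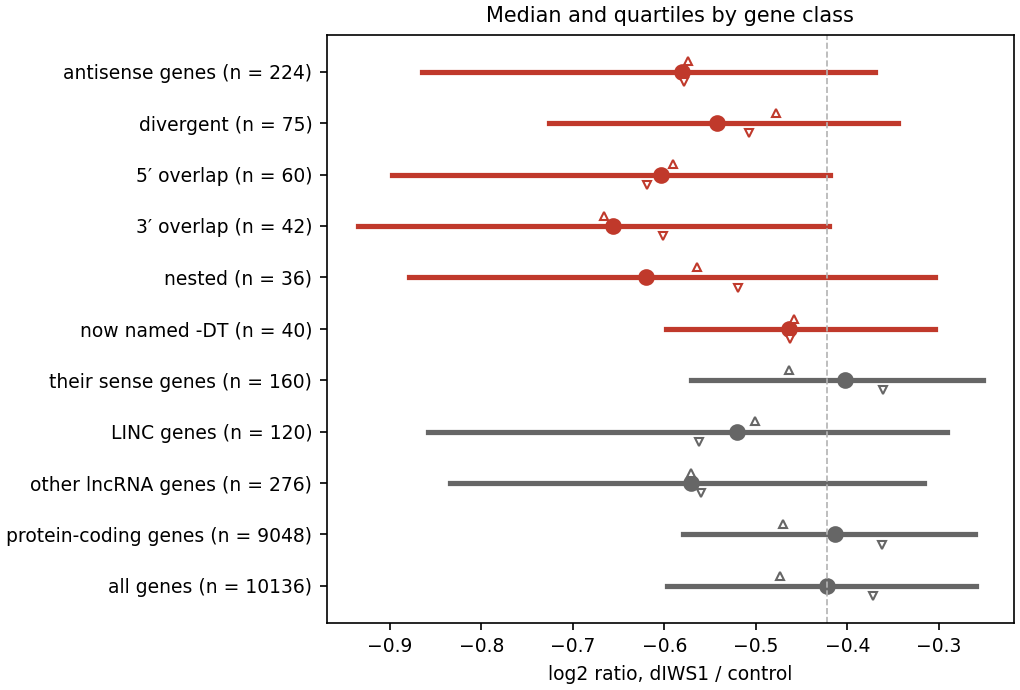
Median log2 ratio of dIWS1 to control (filled circles) with the lower and upper quartiles (bars) for antisense genes and their arrangements (red) and for other gene classes (grey); open triangles pointing up and down are the medians in dIWS1 column 1 and column 2. The dashed line is the median of all genes, −0.42, and the median of every antisense class lies below it.

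The deepest fall was that of USP3-AS1 (chr15:63587710-63600827, minus strand), which starts behind the 3′ end of USP3, a histone H2A deubiquitinase, and overlaps its last 6924 bp. It had 202 reads in the control and 31 and 28 in dIWS1 columns 1 and 2, the order in which reads are given throughout. The log2 ratios were −2.66 and −2.70, and limma gave an adjusted p of 5.26e-29 with a standard error of 0.23. Both dIWS1 columns lay far below the control. USP3 itself had 10388, 7968 and 8615 reads in the same order, a log2 ratio of −0.24 that did not pass (adjusted p = 0.12, limma).

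PSMD6-AS2 (chr3:64004022-64012243, plus strand) likewise starts behind PSMD6, a subunit of the proteasome regulatory particle. Its reads were 546 in the control against 172 and 159, and the log2 ratio was −1.64 in both columns (adjusted p = 1.05e-27, limma). PSMD6 had 1055, 901 and 1034 reads, with ratios of −0.20 and 0.11 on either side of 0. The antisense minus sense difference of the log2 ratios was −1.60, with a 95% counting interval from −1.82 to −1.38.

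SDCBP2-AS1 (chr20:1325343-1378735, plus strand) had the most control reads of the deepest falls. It had 2891 control reads and 964 and 877 dIWS1 reads, a log2 ratio of −1.57 (adjusted p = 1.03e-24, limma). Its sense gene, which encodes syntenin-2, was not listed. SLFNL1-AS1, the next in control reads, had 1038, 429 and 407 reads and a log2 ratio of −1.23, the smallest fall of the 12.

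The other large falls had fewer reads, 51 to 349 in the control. IDI2-AS1 had 115 control reads against 37 and 32, TAPT1-AS1 293 against 104 and 98, and ZBED5-AS1 349 against 117 and 127. SLC25A25-AS1 had 173 against 72 and 50, and PPP3CB-AS1 258 against 99 and 92. In each, both dIWS1 columns lay below the control, which the choice of called falls favours. The columns of SLC25A25-AS1 were apart, with log2 ratios of −1.24 and −1.65. SLC25A21-AS1 (51 against 23 and 15), SPTY2D1-AS1 (123 against 52 and 44) and SGMS1-AS1 (59 against 20 and 26) complete the 12 largest falls, whose log2 ratios ranged from −2.68 to −1.23. The 12 include 6 members with 5′ overlap, 3 with 3′ overlap and 1 each divergent, convergent and nested, and all of them were also lower than the median gene in the recentred fit, at adjusted p from 1.11e-19 to 0.042. With libraries scaled to total reads, SLC25A21-AS1 (adjusted p = 0.089) and SGMS1-AS1 (0.077) did not pass.

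**Figure D3:**
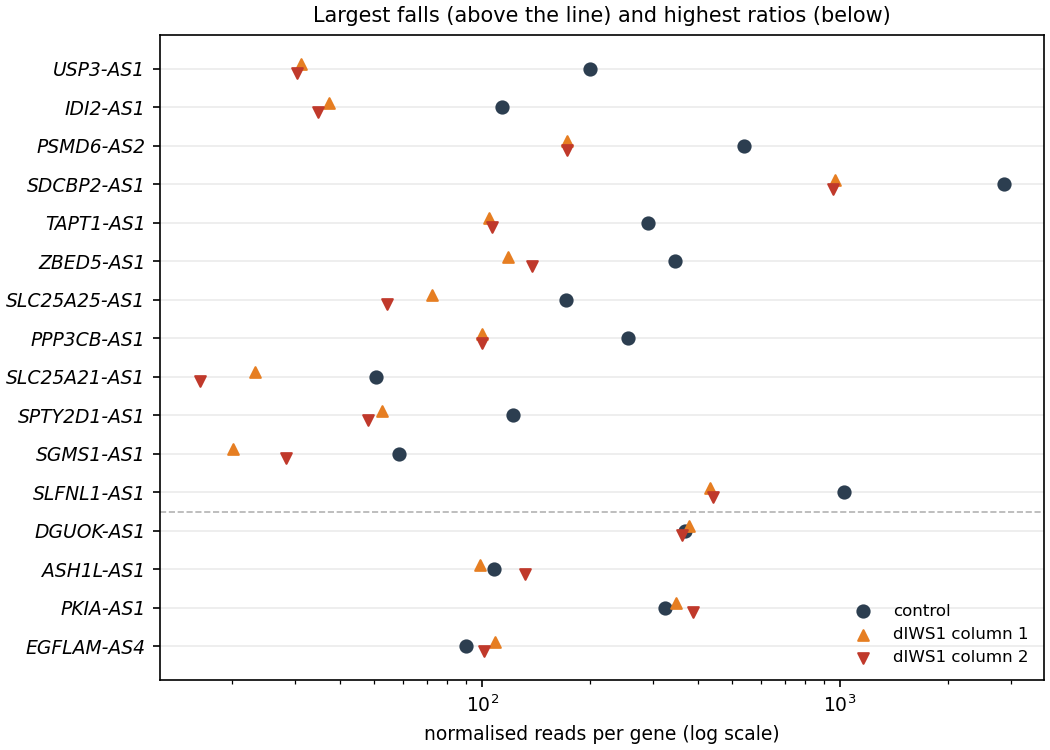
Normalised reads per gene (log axis) in the control (dark circles), dIWS1 column 1 (orange) and dIWS1 column 2 (red) for the 12 called antisense genes with the largest falls (above the dashed line) and the 4 with the highest ratios (below), all with at least 50 control reads. In the upper genes both dIWS1 columns lie left of the control, from USP3-AS1 with 202 control reads before scaling to SLFNL1-AS1 with 1038, while in the lower genes the 3 points lie together.

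The other 23 of the 35 members called lower than the median gene had log2 ratios against the control between −1.23 and −0.87. Those given here were picked from them after their values were seen. PROSER2-AS1 was the most transcribed, with 3286, 1769 and 1491 reads and a log2 ratio of −0.94 (adjusted p = 7.72e-09, limma). TCEB3-AS1, which overlaps the 3′ part of the gene for the elongation factor Elongin A, had 1058, 495 and 443 reads, while TCEB3 had 1238, 972 and 1018 and did not pass (log2 ratio −0.23, adjusted p = 0.11). Both dIWS1 columns lay below the control in each of these antisense genes. MIF-AS1, beside the cytokine gene MIF, had 124, 59 and 42 reads, a log2 ratio of −1.22 against −0.57 for MIF. The divergent RBM26-AS1 and SRRM2-AS1, whose neighbours encode an RNA-binding protein and a spliceosome-associated protein, had log2 ratios of −1.13 and −1.10, against −0.33 for RBM26 and −0.55 for SRRM2. IQCH-AS1 differed from these, since its sense gene had nearly the same ratio (−0.92 and −0.83, counting interval of the difference −0.25 to 0.06).

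The 6 members with the most reads lay near the median gene, and 4 of them passed as lower. NUTM2B-AS1 had 6129 reads in the control and 4274 and 3975 in the dIWS1 columns, a log2 ratio of −0.49 (adjusted p = 0.0026, limma). KCNMB2-AS1, the longest span at 334939 bp, had 4154, 3046 and 2738 reads and fell by 0.45 on the log2 scale. TRAF3IP2-AS1 fell by 0.54 and NUTM2A-AS1 by 0.37 on the same scale. These 4 passed the test against 0 and not against the median gene in the recentred fit, while CCDC144NL-AS1 (5144, 4436 and 3803 reads, log2 ratio −0.24, adjusted p = 0.13) and PSMA3-AS1 (4029, 3149 and 3100 reads, log2 ratio −0.29, adjusted p = 0.080) did not pass against 0. NUTM2A-AS1 and NUTM2B-AS1 lie in near-identical copies of one segment of chromosome 10, and the study kept reads that align uniquely, so the split between them is uncertain.

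Members without a fall were few, as in the whole table, where 96.2% of all genes had a log2 ratio below 0. Of the 8 members with a log2 ratio above 0, only EGFLAM-AS4, PKIA-AS1 and ASH1L-AS1 had at least 50 control reads. EGFLAM-AS4 had 91 control reads and 108 and 93 dIWS1 reads, PKIA-AS1 had 328, 346 and 358, and ASH1L-AS1 had 109, 98 and 121. None of these passed the test against 0, with log2 ratios of 0.22, 0.18 and 0.09 and adjusted p of 0.32, 0.22 and 0.74 (limma). DGUOK-AS1 came next with 373, 375 and 332 reads and a log2 ratio of −0.00050. Against the median gene, EGFLAM-AS4, PKIA-AS1 and DGUOK-AS1 were the 3 members called higher, by 0.64, 0.60 and 0.43 on the log2 scale. The other members above 0 had 13 to 34 control reads, and the highest ratio, 0.67 for RALY-AS1 with 15, 25 and 21 reads, did not pass (adjusted p = 0.12, limma). INTS6L-AS1 had at most 3 reads in every column, and its ratio is not printed, though it is part of the counts and medians of the 224 members. RALY-AS1 and INTS6L-AS1, like the members with another RefSeq type above, were named after their values were seen.

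Of 50 antisense lncRNAs listed because they have been studied in other settings, 23 were in the table. In this list 15 fell, 0 rose and 8 did not pass, beside 64.5% of all genes called lower, and the median log2 ratio was −0.55. Beside USP3-AS1, only GAS6-AS1 (244 control reads against 127 and 115) and TP73-AS1 (528 against 285 and 242) were called lower than the median gene. Both had log2 ratios of −0.93 against the control. BACE1-AS, which overlaps the β-secretase gene and has been studied in Alzheimer's disease, had only 18 control reads against 8 and 8, and its ratio of −1.05 passed (adjusted p = 0.033, limma) but not relative to the median gene (adjusted p = 0.43).

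Several genes of this list lie beside transcription factor genes, and their ratios covered a wide range. GATA2-AS1, beside the hematopoietic factor GATA2, had 1147, 686 and 625 reads and a log2 ratio of −0.73. GATA2 itself had 1256, 1038 and 948 reads, a ratio of −0.26 that did not pass (adjusted p = 0.079, limma). WT1-AS fell by 0.65, ZEB1-AS1 by 0.59 and SNAI3-AS1 by 0.88 on the log2 scale, calls that were lost under the other scalings, while HOXB-AS1 (234, 172 and 182 reads) and HOXA11-AS (39, 29 and 28 reads) did not pass. OIP5-AS1, a cytoplasmic lncRNA that binds the RNA-binding protein HuR, had 1103, 876 and 914 reads and did not pass, with a log2 ratio of −0.22 (adjusted p = 0.13, limma).

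The remaining genes of the list had log2 ratios between −0.82 and −0.10. TTN-AS1 had 2928, 1690 and 1659 reads, a log2 ratio of −0.73, and NNT-AS1 had 1191, 834 and 867 reads, a ratio of −0.40. TMPO-AS1, KDM4A-AS1, PXN-AS1, FGD5-AS1 and SBF2-AS1 also passed, with ratios between −0.82 and −0.40. AFAP1-AS1 (508, 465 and 431 reads), MCM3AP-AS1 (949, 745 and 845 reads), MAPKAPK5-AS1 and ATP6V0E2-AS1 did not pass, with log2 ratios of −0.10, −0.17, −0.27 and −0.31.

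Paired with their sense genes, antisense genes fell more. The antisense minus sense difference of log2 ratios, in which the spike-in scaling cancels, had a median of −0.19 over 160 pairs (quartiles −0.42 and 0.07), with −0.16 in column 1 and −0.21 in column 2. The antisense gene was the lower of the pair in both columns in 93 pairs, the higher in both in 35, and the columns differed in sign in 32. With 95% counting intervals in both columns, 35 pairs lay below 0 and 9 above. Among 127 pairs with at least 50 control reads in both genes the median was −0.19, with 77 pairs lower and 29 higher in both columns. Both genes were called lower in 74 pairs, the antisense gene alone in 36, the sense gene alone in 29 and neither in 21. Called lower were 68.75% of these antisense genes and 64.4% of the sense genes, beside 64.5% of all genes. These shares are near each other, so the split of calls is not read as a trait of the pairs.

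Sense and antisense ratios had a correlation near 0. Across the 160 pairs Pearson's r was −0.03 and Spearman's rho 0.04, given as a description since pairs share their libraries and the low genes carry more counting error. The median difference was −0.18 for divergent, −0.17 for 5′ overlap, −0.20 for 3′ overlap and −0.19 for nested pairs. Convergent pairs had −0.13 (n = 4). In column 1 alone the medians were −0.08 for divergent, −0.16 for 5′ overlap, −0.18 for 3′ overlap and −0.20 for nested pairs, so the divergent value moved by over 2 times. The pairs with 3′ overlap were the most spread, with 14 of 33 counting intervals of the mean difference below 0 and 9 above it, and r was −0.36 over them.

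**Figure D4:**
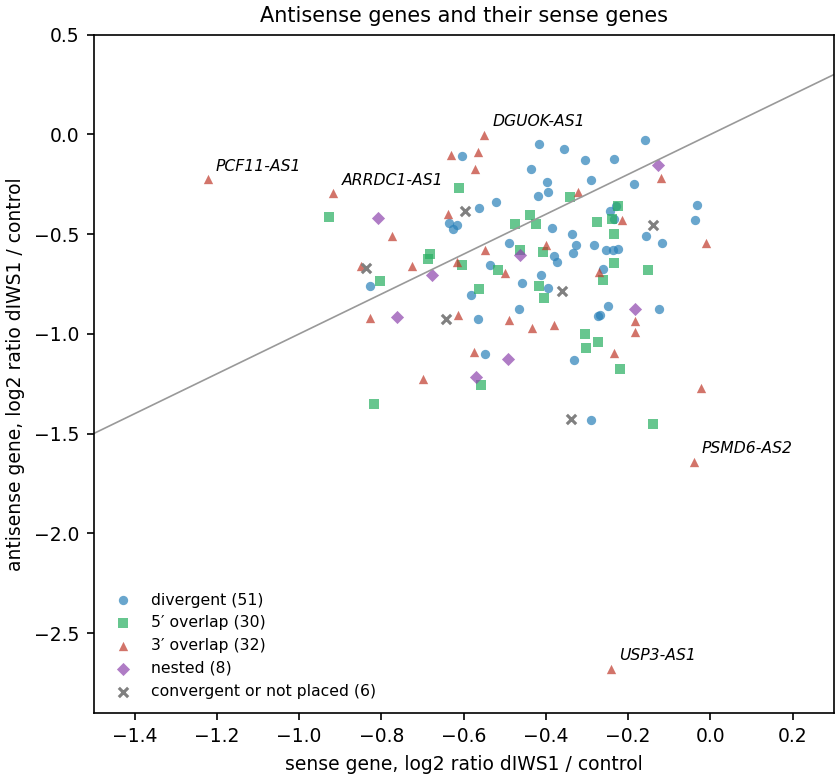
Log2 ratio of dIWS1 to control of the sense gene (x) and the antisense gene (y) in the 127 pairs with at least 50 control reads in both genes, by arrangement; the line marks equal ratios. Points lie on both sides of the line with more below it, r over all 127 is −0.08, and USP3-AS1 and PSMD6-AS2 lie farthest below while PCF11-AS1 lies farthest above.

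Among pairs with at least 50 control reads in both genes and the same sign in both columns, the 6 farthest below 0 were those of USP3 (−2.44), PSMD6 (−1.60), TAPT1 (−1.31), SPTY2D1 (−1.25), ZBED5 (−1.14) and SLC25A25 (−1.09), each given as the antisense minus sense difference. In all 6 the antisense gene was among the 12 largest falls and the sense gene had a log2 ratio between −0.34 and −0.02. SPTY2D1, a histone chaperone gene, had 1387, 1219 and 1360 reads. TAPT1 had 4518, 3706 and 4035 reads, with 728 bp of its 5′ part shared with the antisense span. ZBED5, whose start lies 164 bp from that of its divergent antisense gene, had 733, 541 and 590 reads and a log2 ratio of −0.29 against −1.43 for ZBED5-AS1.

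In the 6 pairs farthest above 0, chosen with the same minimum of reads, the sense gene fell and the antisense gene had a higher ratio. PCF11, a factor of 3′ end cleavage and termination, had 4714, 1911 and 1910 reads, a log2 ratio of −1.22 (adjusted p = 2.53e-14, limma). PCF11-AS1, which overlaps its 3′ part by 1931 bp, had 90, 78 and 68 reads, a log2 ratio of −0.22 (adjusted p = 0.34), and the difference was 1.00 (95% counting interval 0.62 to 1.38). ARRDC1 had 433, 240 and 195 reads against 277, 242 and 187 for ARRDC1-AS1, a difference of 0.62. DGUOK, a mitochondrial deoxyguanosine kinase gene, had 2741, 1702 and 1832 reads and differed by 0.55 from DGUOK-AS1. INTS6-AS1, which had too few reads for the rule and was picked after its values were seen, had 20, 20 and 19 reads, whereas INTS6, the gene for an Integrator subunit, had 7823, 2792 and 2685. That difference was 1.48, with a counting interval from 0.71 to 2.25. The differences for AFAP1, CTBP1 (a transcriptional corepressor) and CAPN10 (a calpain protease) were 0.53, 0.52 and 0.50. In the 6 pairs of the rule the sense gene passed the test as lower and the antisense gene did not.

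Divergent neighbours differed in either direction. CAPN10 had 242, 140 and 160 reads and CAPN10-AS1, 418 bp away, had 90, 81 and 77. The interval of that difference, 0.05 to 0.94, is wide at this number of reads, and that of ZBED5 was −1.41 to −0.87. For CTBP1-AS2, which is not divergent but has 5′ overlap with CTBP1, the columns were far apart. Its log2 ratios were −0.14 and −0.75 from 93 and 56 reads against 104 in the control.

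The medians of the members lay below those of all genes of like length and base composition. In the table as a whole the median log2 ratio went from −0.31 for spans of up to 40% GC to −0.57 over 55% GC, whereas the members lay between −0.65 and −0.51 in every GC class. By length, the members had medians of −0.58 under 10 kb (113 genes), −0.70 from 10 to 25 kb (56), −0.60 from 25 to 65 kb (37) and −0.52 over 65 kb (18). All genes had −0.48, −0.39, −0.34 and −0.49 in these classes, so the members minus all genes came to −0.31 from 10 to 25 kb and to −0.03 over 65 kb. The members' medians lay below those of all genes in each class of length, GC and read number.

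The number of members that passed differed with read number. With up to 10 control reads 1 of 6 members was called lower, beside 14.4% of all genes of that class, and with over 10 to 50 reads 14 of 43 were, beside 33.7%. Over 1000 reads 32 of 38 members were called, beside 65.6% of all genes. From over 100 to 300 reads 45 of 56 members were called lower, beside 69.1%. In the recentred fit 17 of them were called lower than the median gene, where 8.01% of all genes were. The median standard error of a member's log2 ratio was 0.15 with at least 50 control reads and 0.38 below that. For a member with few reads that did not pass, a fall is neither shown nor excluded at this depth.

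**Figure D5:**
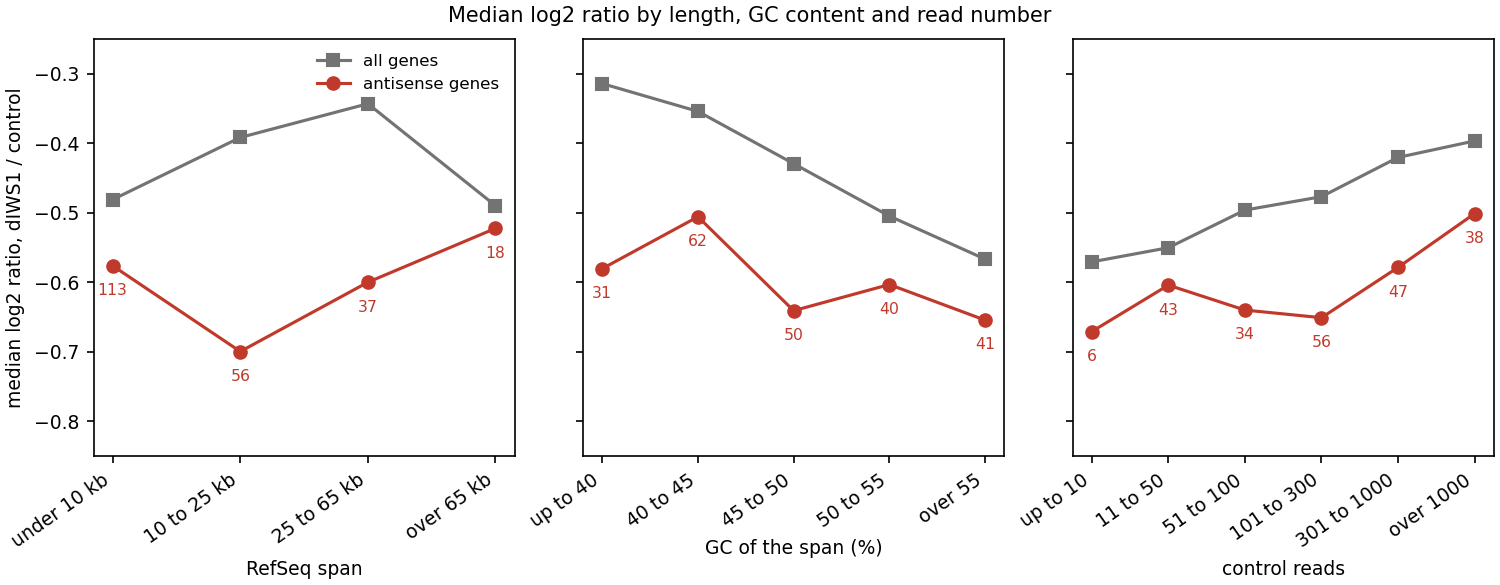
Median log2 ratio of dIWS1 to control in classes of RefSeq span, GC content of the span and control reads, for antisense genes (red, with their number) and all genes (grey). The red points lie below the grey ones in all 15 classes, and only 6 antisense genes have up to 10 control reads.

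Members called lower than the median gene held GC and CCAAT boxes less often than the rest in their promoter windows. Of the 24 such members with a window, 11 held a GC box (45.8%) and 3 a CCAAT box (12.5%), against 103 (69.6%) and 48 (32.4%) of the 148 others. These shares were taken after the calls were known and were not tested.

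Beyond the members, the 3 columns held 20684301 to 29832118 reads in genes, of which 0.418% of the control reads fell in antisense genes. IWS1, whose tag acts on the protein and not on its gene, had 3684, 2334 and 2427 reads, a log2 ratio of −0.55 (adjusted p = 7.80e-04, limma). Of 14 markers of K562 and its erythroid character 13 were listed, and of 14 markers of other cell types CD3D, LYZ and KRT18 were listed with 60 to 945 control reads, and their part in the results was not tested. All p-values compare 2 dIWS1 columns with 1 control column, and limma gave all genes a common spread, so a gene with an unusual spread of its own is not recognised. Counting intervals cover counting error only.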

How the data were processed

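The authors aligned TT-seq reads with STAR 2.6.0 to GRCh38 with spike-in sequences, counted them strand by strand over RefSeq genes, left out overlapping genes and genes up to a minimum of reads per kb, and ran DESeq2 with spike-in size factors. The table the authors deposited holds 1 comparison of 4 library columns. Its mean per gene is a signal that the authors made by dividing counts by size factors and averaging over the columns. Its deposited log2 fold change, standard error, test score and p-values are the authors' results and are not printed. The log2 fold change served only to order the columns and to narrow the search for 1161 genes.

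Whole reads per column were recovered from the mean. Every mean was a sum of whole multiples of 3 steps, with 1 solution for each of 10136 genes. One step fits a control column entered 2 times (size factor 1.01), which was counted once, and the dIWS1 columns had size factors of 0.993 and 0.919. Recovery and test were checked on data with known answers. In genes the control column held 29832118 reads, dIWS1 column 1 20684301 and dIWS1 column 2 20886697.

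Reads were tested with limma 3.58.1 voom in R 4.3.3, with library sizes proportional to the size factors, no filter on low reads and Benjamini-Hochberg adjustment over 10136 genes. Log2 ratios used normalised reads with a pseudocount of 0.5. Spans and promoter windows came from RefSeq (GRCh38.p14), whose release may differ from that of the authors. Other computations used numba 0.67.0, pandas 2.3.3, numpy 2.4.6, matplotlib 3.10.9 and scipy 1.17.1 in Python 3.11.15. Named by rule were the 12 called members with the largest fall and at least 50 control reads, the 4 highest, the 6 with the most reads, 6 pairs at either end of the antisense minus sense difference, 23 studied antisense lncRNAs, their sense genes and IWS1. The members and lists were chosen with earlier results of these data known. The alternatives were other scalings, filters, thresholds, pseudocounts and pairings.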

Additional observations from a re-analysis of the deposited data

How the results depend on the processing

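The number of members called lower stayed within a factor of 1.5 under a filter of 10 reads (157 of 218, beside 65.6% of all genes), limma trend (155, beside 55.2%), the control column entered 2 times (175, beside 77.8%, a fit that counts 1 library as 2 replicates and is not valid as a test), adjusted p under 0.01 (128, beside 48.6%) and under 0.1 (172, beside 73.0%), and with members typed lncRNA alone (143 of 215). It fell to 34 with scaling to total reads and to 35 when recentred on the median gene, settings that by construction move the median of all genes by 0.44 and 0.43 on the log2 scale. Members called higher, 0 in the main test, numbered 6 with total reads, 3 when recentred, 1 with limma trend and 2 with the control entered 2 times; the cause was not tested for the last 2.

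The median log2 ratio of the members was −0.14 with total reads and −0.16 when recentred, −0.58 with at least 100 reads, −0.59 with a smaller pseudocount and −0.59 with groups at or under 3 reads set to 3. Leaving out each dIWS1 column gave −0.58 and −0.57, and the only control column could not be left out. As alternatives chosen after seeing the data, it was −0.62 for 174 members still named -AS and −0.46 for 40 now named -DT, and pairs whose spans share no base had a median difference of −0.18. The median antisense minus sense difference ranged from −0.21 to −0.16 over its 8 alternatives and kept its sign. Of 160 pairs 93 had the antisense gene lower in both columns, and 91 of 156 with at least 10 control reads.

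Among the 47 named members, 16 changed sign under each of the other scalings. With total reads and when recentred, the log2 values were 0.036 and 0.019 for NNT-AS1, 0.041 and 0.023 for SBF2-AS1, 0.075 and 0.058 for HOXA11-AS, 0.075 and 0.058 for NUTM2A-AS1, 0.12 and 0.10 for HOXB-AS1, 0.11 and 0.10 for ATP6V0E2-AS1, 0.14 and 0.13 for ARRDC1-AS1, and 0.15 and 0.14 for PSMA3-AS1. They were 0.17 and 0.15 for MAPKAPK5-AS1, 0.20 and 0.18 for CCDC144NL-AS1, 0.22 and 0.20 for PCF11-AS1, 0.22 and 0.20 for OIP5-AS1, 0.26 and 0.25 for MCM3AP-AS1, 0.33 and 0.32 for CAPN10-AS1, 0.34 and 0.32 for AFAP1-AS1, and 0.44 and 0.43 for DGUOK-AS1. Under both scalings 11 others lost their call (BACE1-AS, FGD5-AS1, KCNMB2-AS1, KDM4A-AS1, NUTM2B-AS1, PXN-AS1, SNAI3-AS1, TMPO-AS1, TRAF3IP2-AS1, WT1-AS and ZEB1-AS1), SGMS1-AS1 and SLC25A21-AS1 did with total reads alone, GATA2-AS1 and TTN-AS1 when recentred alone, and NUTM2A-AS1 with limma trend. The named pairs were chosen with the same sign in both dIWS1 columns, so leaving out a column could not change their sign. No paired analysis was possible because the columns of the deposited table carry no replicate number.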
